A study of Oryza sativa with 12 samples.

Results

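WRKY transcription factors were examined in leaves of rice plants mutant or wild type for the phosphate regulator PHR2, kept without or with phosphate (Pi). A gene was taken as a member where its name, or the first parts of its description in the deposited table, held the word WRKY. This gave 113 genes of 39967 in the table, and 76 of them, of 22648 genes in all, reached an FPKM (fragments per kilobase of transcript, scaled to the mapped fragments) of at least 1 in at least 3 of 12 libraries. The WRKY protein domain was listed for 88 of the 113 genes and for 63 of the 76 kept genes. A further 2 genes with the domain carried no WRKY name and were not members.

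The mutant, phr2, is labelled a PHR2 knockout, and the wild type (WT) is ZH11. There were 4 groups with 3 libraries each: phr2 without Pi (phr2 no Pi), phr2 on control medium (phr2 control), WT without Pi (WT no Pi) and WT on control medium (WT control). Plants were grown on 1/2MS medium, and an age of 3 weeks is listed for all 4 groups. Those without Pi were 3 weeks old at transfer, and their leaves were taken on day 3. The harvest day of the control plants, the kind of knockout allele and the origin of the replicates are not given in the labels, so p-values measure the spread between these libraries, which may be technical. RNA came from whole leaves, where fewer cells of a type and less RNA per cell cannot be told apart.

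WRKY proteins form a large plant family of transcription factors named after a conserved amino acid stretch of their DNA-binding domain, and they bind DNA elements called W boxes. Many are induced by pathogens or by salicylic acid and act as activators or repressors of defence genes, some switch on leaf senescence, and others act in Pi, iron or hormone responses. In Arabidopsis WRKY6 and WRKY42 repress the Pi exporter gene PHO1, and WRKY75 is linked to Pi starvation. PHR2 is the central activator of Pi starvation genes in rice. WRKY proteins work with VQ motif proteins, which bind them, and with mitogen-activated protein (MAP) kinases, which phosphorylate some of them.

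The libraries held 10109727 to 13122430 fragments recovered from the deposited values. PHR2 itself was listed at 21.4 to 29.7 FPKM in phr2 and at 17.9 to 31.5 FPKM in WT, so its level does not check the genotype labels. The library labelled phr2 no Pi 3 stood apart: across genes it was most alike to WT no Pi 2 (Pearson's r = 0.968, the highest of any 2 libraries) and next to WT control 3 (r = 0.95), while the highest r within any group was 0.93. Leaf marker genes summed to 37390 FPKM or more in every library and genes of the root marker list to 935 FPKM or less. Of the entries, 13 of 39 leaf and 16 of 68 root ones were at 0 in every library. The root list was matched by words and took in Os10g0369750, matched to the Scarecrow-like protein PAT1, at 5.2 to 96.9 FPKM. Its sum is therefore not a level of root markers alone.

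Taken as a family, WRKY genes were lower in phr2 leaves than in WT leaves. The 76 genes together made up 0.0621% to 0.243% of a library's FPKM sum in phr2, against 0.185% to 0.778% in WT. The highest phr2 value came from the library labelled phr2 no Pi 3, at 0.243%; the other 5 phr2 libraries lay at or below 0.107%, under every WT library. The median WRKY gene differed between phr2 and WT by -1.01 on the log2(FPKM + 1) scale, averaged over both media, against 0.02 for the median of all genes kept. This difference was below 0 for 62 of 76 WRKY genes (81.6%) and for 48.3% of all genes kept.

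**Figure D1:**
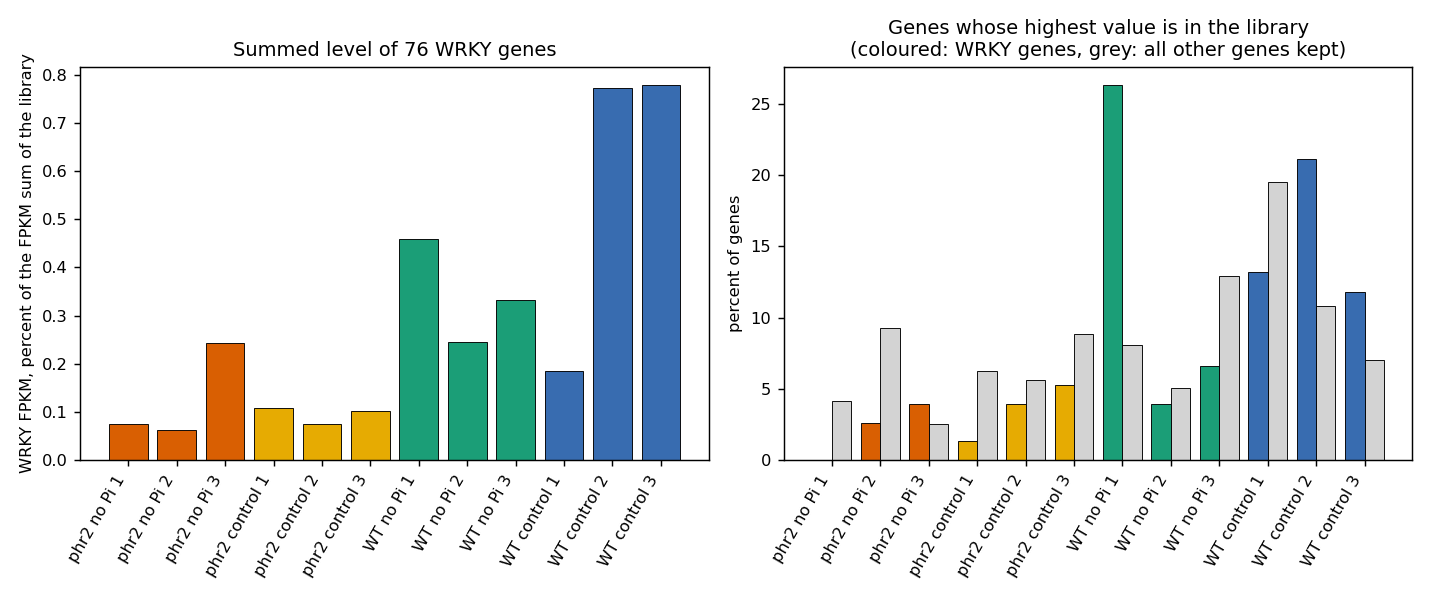
Left, the FPKM of the 76 WRKY genes as a percent of the FPKM sum of each library (y axis, percent; x axis, library). Right, the percent of WRKY genes (coloured) and of all other genes kept (grey) whose highest value lay in each library. WRKY genes made up at most 0.107% in phr2 libraries other than phr2 no Pi 3, and 20 of 76 WRKY genes were highest in WT no Pi 1.

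The 2 media, which share no libraries, gave the same direction. On medium without Pi the median WRKY gene was -1.14 in phr2 minus WT (all genes -0.01), with 63 of 76 below 0. Leaf marker genes summed to 56320 to 118000 FPKM in phr2 no Pi and to 37390 to 52680 FPKM in WT no Pi, with a median difference of 0.71 and 2 of 21 below 0, and the part of this shift in the WRKY values was not tested. On control medium the median WRKY gene was -0.82 in phr2 minus WT (all genes 0.02), with 54 of 76 below 0. In both media at once, 48 of 76 WRKY genes (63.2%) were below 0, against 27.9% of all genes kept. In 26 WRKY genes (34.2%) every phr2 control library lay below every WT control library, against 11.8% of all genes in that direction. On medium without Pi the same held for 15 WRKY genes (19.7%), against 5.46% of all genes. The shared genes were 4: WRKY24, WRKY53, WRKY49 and WRKY25. That is 15.4% of the 26, against 19.7% of all 76 without Pi. It is 26.7% of the 15, against 34.2% of all 76 on control medium. The sharing between media was thus not above the share of the whole family. Of all genes kept, 191 were shared in this way. That is 7.13% of 2677 on control medium, against 5.46% of all genes without Pi. It is 15.4% of 1237 on medium without Pi, against 11.8% of all genes on control medium.

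Averaged over both media, 9 of 76 WRKY genes fell in phr2 and 0 rose (limma, adjusted p below 0.05 over all 22648 genes), where 1.22% of all genes passed. They were WRKY25, WRKY51, WRKY21, WRKY71, WRKY68, WRKY53, WRKY108, WRKY74 and WRKY104. At an unadjusted p below 0.05, 41 WRKY genes were lower and 1 was higher, and 11.4% of all genes were lower. On control medium alone 3 genes fell, WRKY68, WRKY25 and WRKY51 (0.667% of all genes passed). On medium without Pi 0 of 76 passed (0% of all genes), although 29 WRKY genes (38.2%) had an unadjusted p below 0.05, against 8.67% of all genes, and voom on the recovered fragments also called 0.

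Without the library labelled phr2 no Pi 3 these counts were 23 of 76 for the mean of both media (6.83% of all genes), 12 on control medium (3.4%) and 4 on medium without Pi (1.19%), all lower in phr2. Without that library and WT control 1 they were 31 (8.72%), 22 (5.2%) and 17 (2.83%), again all lower in phr2. For 18 WRKY genes phr2 no Pi 3 lay over 5-fold above both others of its group. For 19, WT control 1 lay over 5-fold below both others. Leaving these libraries out widens the gap in such genes, so the higher counts are no separate evidence of it. The 9 calls lay close to the threshold, with adjusted p of 0.041 to 0.0487, and each of the 9 kept its direction in all 24 alternative settings while passing in only 7 to 10 of them. With all 12 libraries, none of the 76 passed for the mean of both media under 6 of these settings, given among the limits at the end. None passed either without any 1 of phr2 no Pi 1 or 2, phr2 control 2 or 3, WT no Pi 1 or 3, or WT control 2 or 3; 1 passed without phr2 control 1 (0.19% of all genes), 14 without WT no Pi 2 (2.12%) and 26 without WT control 1 (3.53%). On control medium the 3 calls were lost without any 1 of the phr2 control libraries, WT no Pi 3 or WT control 2 or 3; 1 was left without WT no Pi 2 (0.0883% of all genes), and 17 passed without WT control 1 (2.59%).

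**Figure D2:**
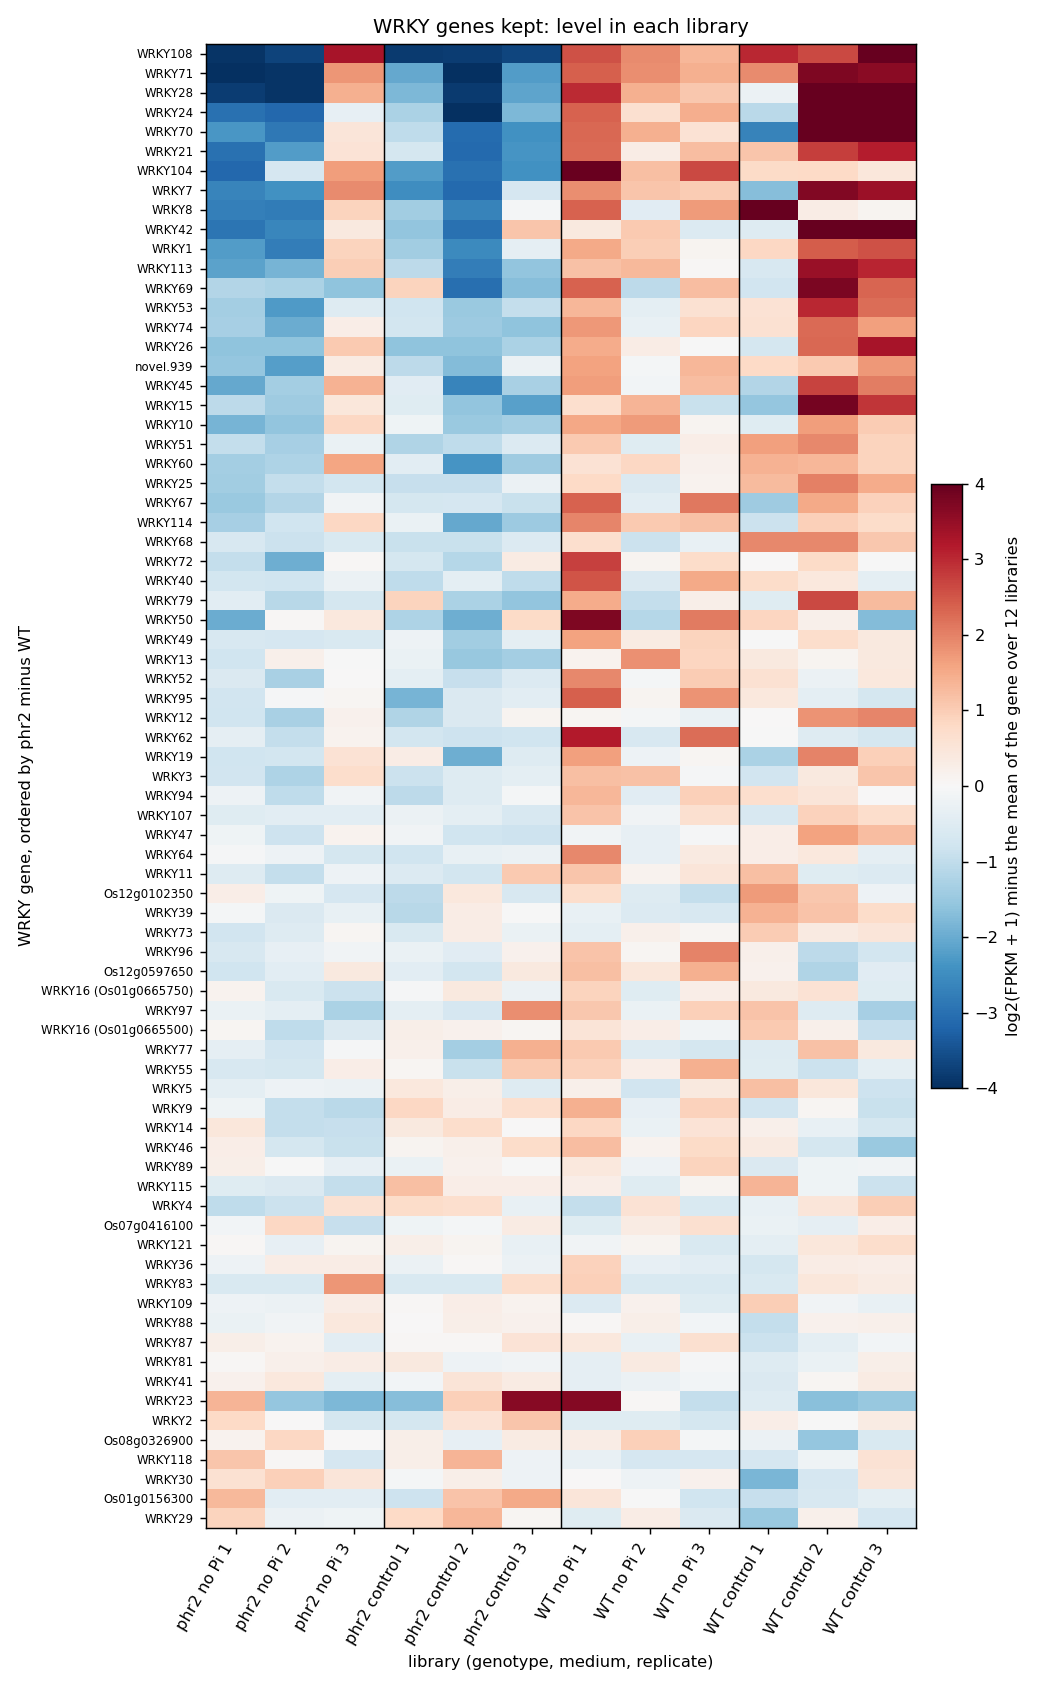
Level of each of the 76 WRKY genes (rows, ordered by phr2 minus WT) in each of 12 libraries (columns), as log2(FPKM + 1) minus the gene's mean over the 12 libraries; red is above and blue below that mean. The upper rows are blue in phr2 libraries other than phr2 no Pi 3 and red in WT libraries, and WT control 1 is pale or blue in several of those rows.

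WRKY genes tied to Pi were the role group with the lowest values. The list held WRKY74, WRKY21, WRKY108, WRKY28 and WRKY10, and was chosen with earlier results of these data known. All 5 were below 0 in phr2 minus WT in both media, against 27.9% of all genes kept. Their median was -3.61 for the mean of both (all genes 0.02). For that mean 3 of 5 fell (WRKY21, WRKY108 and WRKY74), where 1.22% of all genes passed. None of the 5 passed in the WT response to Pi removal, where their median was -1.04.

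WRKY108 and WRKY21 lie near each other on chromosome 1 (35032858 to 35035321, minus strand, and 35062738 to 35064472, plus strand), and both are described as promoting Pi accumulation when Pi is plentiful. WRKY108 had 0, 0.158 and 147 FPKM in phr2 no Pi, 0.0714, 0.0827 and 0.188 in phr2 control, 87.3, 55.8 and 37.1 in WT no Pi and 122, 92.9 and 291 in WT control. In 5 of 6 phr2 libraries these values rest on 0 to 2 fragments, while the library labelled phr2 no Pi 3, with 2077 fragments, lay inside the WT range of 464 to 3417. The fitted difference for the mean of both media was -5.22 ± 1.02 (log2, SE; adjusted p = 0.0433), and its size depends on the pseudocount of 1 because most phr2 values are close to 0. On control medium, where the groups of 3 did not overlap, the difference of -7.07 ± 1.45 missed the threshold (adjusted p = 0.052).

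WRKY21 had 1.15, 2.62 and 23.8 FPKM in phr2 no Pi, 9.3, 0.951 and 2.28 in phr2 control, 79.5, 19.9 and 38.9 in WT no Pi and 35.7, 115 and 149 in WT control. Only the library labelled phr2 no Pi 3 reached into the WT range, above WT no Pi 2. WRKY21 fell in phr2, with a log2 difference of -3.61 ± 0.66 for the mean of both media (adjusted p = 0.042).

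WRKY74 (chromosome 9, 10128837 to 10131086, plus strand), described as raising tolerance of Pi starvation, was the most abundant of this list. It had 64.9, 41.2 and 200 FPKM in phr2 no Pi, 98.6, 59.6 and 53.6 in phr2 control, 551, 132 and 296 in WT no Pi and 253, 788 and 515 in WT control. Its phr2 and WT values overlapped through phr2 no Pi 3 and WT no Pi 2 alone. It fell by 2.26 ± 0.46 (adjusted p = 0.0444).

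WRKY28, a repressor that responds to pathogen-derived molecules and has also been linked to Pi, showed the same order without passing. It had 0.56, 0.42 and 56.9 FPKM in phr2 no Pi, 5.23, 0.527 and 3.99 in phr2 control, 170, 56.7 and 44.4 in WT no Pi and 17.3, 482 and 437 in WT control. The difference was -4.68 ± 1.04 (adjusted p = 0.0526). Without the library labelled phr2 no Pi 3, WRKY28 and WRKY10 were among the 23 genes that passed. WRKY10, a negative regulator of heat tolerance, was at -1.86 ± 0.54 (adjusted p = 0.11).

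**Figure D3:**
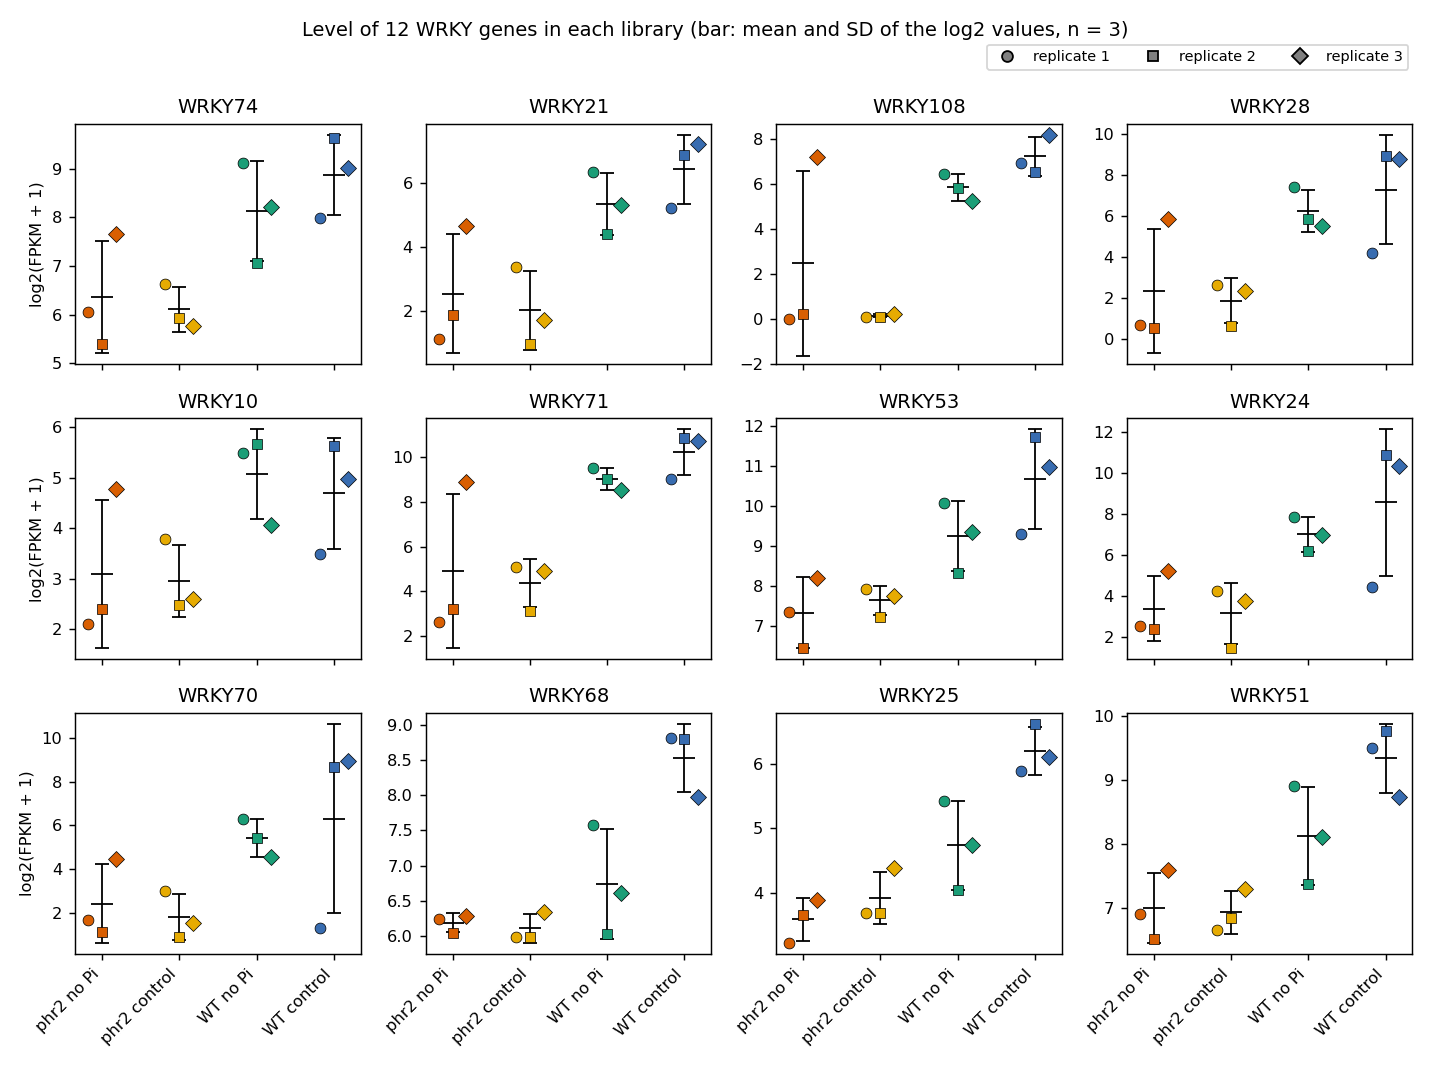
Level of 12 WRKY genes in each library as log2(FPKM + 1) (y axis), by group (x axis; phr2 no Pi, phr2 control, WT no Pi, WT control); marker shape gives the replicate number, and the bar gives the mean and SD of 3 log2 values. In WRKY74, WRKY21, WRKY108, WRKY28 and WRKY71 replicate 3 of phr2 no Pi lies far above the other 5 phr2 libraries, while in WRKY68 all 6 phr2 libraries lie between 62.4 and 80.3 FPKM.

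Among 12 kept genes of the defence list, 11 were below 0 in phr2 minus WT for the mean of both media, against 48.3% of all genes. Their median was -1.59, and 3 fell, where 1.22% of all genes passed: WRKY71, WRKY53 and WRKY68. The other 9 did not pass. The one above 0 was WRKY30, at 0.68 ± 0.35 (adjusted p = 0.344), which had 6.53, 8.57 and 5.93 FPKM in phr2 no Pi and 4.02, 3.24 and 4.55 in WT no Pi. WRKY76, a repressor of defence genes of the same subgroup as WRKY28, WRKY62 and WRKY71 (group IIa), was listed at 0 in every library, and WRKY33 matched no gene name.

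WRKY71 (chromosome 2, 4542938 to 4544874, plus strand) is a defence gene that also represses gibberellin signalling. It had 5.19, 8.37 and 477 FPKM in phr2 no Pi, 33, 7.74 and 29.1 in phr2 control, 739, 514 and 376 in WT no Pi and 524, 1891 and 1715 in WT control. Its median was 18.7 FPKM over 6 phr2 libraries and 631 FPKM over 6 WT libraries, and only phr2 no Pi 3 overlapped with WT. It fell by 4.98 ± 0.92 (adjusted p = 0.0426). An annotated gene on the other strand, Os02g0181200, lies within it and was below the filter; whether the counting used strand is not given in the sources used here, so their reads cannot be told apart.

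WRKY53, a positive regulator of blast resistance that MAP kinases phosphorylate, had the highest mean level of the family. It had 162, 86.3 and 294 FPKM in phr2 no Pi, 241, 149 and 215 in phr2 control, 1066, 320 and 644 in WT no Pi and 623, 3383 and 1990 in WT control. In WRKY53 and the weakly expressed WRKY49, 2 of 76 members (2.63%), all 6 phr2 libraries lay below all 6 WT libraries, the library labelled phr2 no Pi 3 included; 0.305% of all genes kept did so. It fell by 2.46 ± 0.46 (adjusted p = 0.0427).

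The closest relatives of WRKY53 in the file's protein matches, WRKY24 and WRKY70, both matched the same WRKY24 protein. WRKY24 represses abscisic acid and gibberellin signalling in aleurone cells, and WRKY70 gives resistance to insect herbivores. WRKY24 had 4.72, 4.13 and 35.6 FPKM in phr2 no Pi, 17.8, 1.71 and 12.2 in phr2 control, 232, 70.9 and 125 in WT no Pi and 20.8, 1899 and 1318 in WT control. The groups did not overlap within either medium, but WT control 1 lay far below the other WT libraries and the difference of -4.54 ± 1.03 missed the threshold (adjusted p = 0.0548). WRKY70 was at 1.48 FPKM in WT control 1 against 408 and 485 in the other WT control libraries, and its difference was -3.74 ± 1.18 (adjusted p = 0.133).

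The salicylic acid branch was measured through WRKY45, WRKY62 and WRKY13. WRKY45, needed for chemically induced blast resistance, had 7.85, 13.3 and 94.5 FPKM in phr2 no Pi, 25.6, 4.81 and 13.8 in phr2 control, 114, 32.5 and 84 in WT no Pi and 15.2, 235 and 149 in WT control. Its groups overlapped in both media, and its difference was -2.12 ± 0.76 (adjusted p = 0.176). WRKY62 was at 16.4 FPKM in WT no Pi 1 and 8.1 FPKM in WT no Pi 3, and at or below 1.12 FPKM in all other libraries, WT no Pi 2 included. WRKY13 was at -1.24 ± 0.35 (adjusted p = 0.0989).

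WRKY67, which acts in resistance to blast and bacterial blight, had 30, 36.8 and 76.2 FPKM in phr2 no Pi, 51.6, 53.3 and 45.6 in phr2 control, 436, 63.4 and 367 in WT no Pi and 31.3, 244 and 161 in WT control. It was high in 4 WT libraries and at the phr2 level in WT no Pi 2 and WT control 1, and its difference was -1.69 ± 0.56 (adjusted p = 0.154). The gene named WRKY4 in the table (Os03g0758900) lists no WRKY domain, and its difference was -0.06 ± 0.39 (adjusted p = 0.954).

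Genes with a plant zinc cluster beside the WRKY domain, the mark of subgroup IId, held all 3 genes that fell on control medium. There were 6 such kept genes, WRKY42, WRKY68, WRKY25, WRKY51, WRKY121 and WRKY94. All 6 were below 0 in phr2 minus WT for the mean of both media, against 48.3% of all genes. Their median was -1.60, and the highest, WRKY121, was close to 0 at -0.03. Of the 6, 3 fell, in the mean of both media (1.22% of all genes passed) and on control medium alone (0.667%). In Arabidopsis, members of this subgroup bind calmodulin.

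WRKY68 (chromosome 4, 30545175 to 30546517, plus strand), an immune regulator, had 74.5, 64.5 and 76.8 FPKM in phr2 no Pi, 62.4, 62.4 and 80.3 in phr2 control, 190, 64.1 and 96.4 in WT no Pi and 450, 445 and 251 in WT control. It was flat across phr2 libraries, averaging 70.2 ± 7.98 FPKM (SD, n = 6), with the library labelled phr2 no Pi 3 among the others. It fell by 2.42 ± 0.39 in phr2 on control medium (adjusted p = 0.0428). It was also the only member that passed in the WT response, where it fell by 1.80 ± 0.39 without Pi (adjusted p = 0.0442), with 116.7 ± 65.1 FPKM in WT no Pi and 381.9 ± 113.7 FPKM in WT control (SD, n = 3 each). That call was lost when any library other than WT control 3 was left out (adjusted p of 0.0512 to 0.192 in those 11 fits). In phr2 the change without Pi was 0.08 ± 0.39, and the difference between the responses did not pass (1.87 ± 0.55, adjusted p = 0.485).

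WRKY25 had 8.31, 11.5 and 13.8 FPKM in phr2 no Pi, 11.9, 11.9 and 19.9 in phr2 control, 41.9, 15.5 and 25.9 in WT no Pi and 58.4, 97.6 and 68.2 in WT control. Both media separated phr2 from WT without overlap, and WT no Pi lay below WT control in every library. It fell in phr2 by 2.29 ± 0.40 on control medium (adjusted p = 0.0428) and differed by -1.72 ± 0.28 for the mean of both (adjusted p = 0.041).

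WRKY51, which represses gibberellin responses with WRKY71 and acts in defence, had 118, 90.3 and 192 FPKM in phr2 no Pi, 99.3, 114 and 157 in phr2 control, 478, 165 and 275 in WT no Pi and 725, 873 and 427 in WT control. Only phr2 no Pi 3 and WT no Pi 2 crossed. It fell in phr2 by 2.41 ± 0.44 on control medium (adjusted p = 0.0433) and differed by -1.77 ± 0.31 for the mean of both (adjusted p = 0.041).

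The remaining zinc cluster genes varied more. WRKY42, which promotes leaf senescence, had 202 and 193 FPKM in WT control 2 and 3, against 7.18 FPKM in WT control 1, and stayed at or below 24 FPKM in all other libraries; its difference was -2.86 ± 0.95 (adjusted p = 0.151). WRKY121 was even, at 25 to 37.4 FPKM in phr2 and 20.1 to 51.5 FPKM in WT.

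Of the 3 kept genes of the senescence list none passed in any comparison. WRKY23 was high in libraries of different groups, at 55.7 FPKM in phr2 control 3 and 56.3 FPKM in WT no Pi 1. WRKY93 matched no gene name.

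In the list of abiotic stress, development and metal genes, WRKY51 was the only 1 of 7 that passed in phr2 minus WT. For the mean of both media 1.22% of all genes passed, and the median of the list was -0.64. WRKY72, whose best protein match is Arabidopsis WRKY75, had 10.7, 4.9 and 22.5 FPKM in phr2 no Pi and 151, 23.4 and 37.1 in WT no Pi. These groups did not overlap, but the difference of -2.15 ± 0.69 did not pass (adjusted p = 0.541). WRKY47, a drought gene, had 8.9, 5.24 and 5.14 FPKM in phr2 control against 11.9, 32.1 and 24.3 in WT control, a difference of -1.61 ± 0.41 that also missed the threshold (adjusted p = 0.0825). WRKY46 and WRKY29 were at 0.96 and 1.39 on control medium, and neither passed. WRKY78 matched no gene name.

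Rice genes whose best protein match was a known Arabidopsis repressor of PHO1 had unlike patterns. WRKY1, matched to Arabidopsis WRKY6 but listed without a WRKY domain, had 36.1, 24.7 and 321 FPKM in phr2 no Pi, 65.5, 29 and 135 in phr2 control, 499, 341 and 188 in WT no Pi and 310, 941 and 1023 in WT control. Its groups did not overlap on control medium, and its difference for the mean of both media missed the threshold (-2.80 ± 0.63, adjusted p = 0.0526). WRKY5, also matched to Arabidopsis WRKY6 and listed with the domain, was at -0.23 ± 0.36 (adjusted p = 0.781), with 4.5 to 21.6 FPKM throughout. WRKY9, matched to Arabidopsis WRKY42, was higher in every phr2 control library (27.7, 18.9 and 25.1 FPKM) than in any WT control library (8.64, 16.2 and 7.78 FPKM). Without Pi the order turned, with 13.4, 7.43 and 6.68 FPKM in phr2 against 42.9, 12 and 29.8 FPKM in WT. WRKY9 had the smallest p of the family for the difference between the 2 responses, -2.53 ± 0.66, and still did not pass (adjusted p = 0.455). An antisense gene, Os01g0289732, overlaps WRKY9 and was listed at 0.

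Removal of Pi left the family close to the median of all genes. In WT the median WRKY gene changed by -0.10 (all genes -0.01), and 1 of 76 fell and 0 rose, where 2.36% of all genes passed. Leaf marker genes summed to 37390 to 52680 FPKM in WT no Pi and to 93430 to 157800 FPKM in WT control, and the part of this shift in the WRKY values was not tested. In 8 WRKY genes every WT no Pi library lay below every WT control library (12.9% of all genes did so), and in 5 every WT no Pi library lay above (11.9% of all genes). The 5 were WRKY55, WRKY104, WRKY114, Os08g0326900 and Os12g0597650. When libraries were rescaled to the same FPKM sum, which moved the median of all genes to 0.41, WRKY96, WRKY95, WRKY46 and Os12g0597650 rose and WRKY68 fell. WRKY96, for example, had 94, 43.8 and 167 FPKM in WT no Pi and 48, 19.7 and 24.6 in WT control, a difference of 1.60 ± 0.47 as deposited (adjusted p = 0.0833) and of 2.13 rescaled (adjusted p = 0.0349).

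In phr2, removal of Pi gave 0 of 76 calls (0% of all genes) with a median of -0.01; 2 WRKY genes (2.63%) had an unadjusted p below 0.05, against 3.91% of all genes, and voom also called 0. Of the 76 genes 39 were below 0. Without the library labelled phr2 no Pi 3 this was 53, with a median of -0.29 (all genes 0.01). All 5 genes of the Pi list were above 0 with that library (0.14 to 2.32) and below 0 without it (-1.28 to -0.05); none passed either way. For the difference between the responses of phr2 and WT 0 of 76 passed (0% of all genes), with 9 (11.8%) at an unadjusted p below 0.05, against 8.84% of all genes, and a median of 0.01. That median was -0.24 without the library labelled phr2 no Pi 3. For no Pi minus control over both genotypes 0 of 76 passed (0.053% of all genes), with 8 (10.5%) at an unadjusted p below 0.05, against 20.2% of all genes, and a median of -0.06. That median was -0.17 without the library labelled phr2 no Pi 3. Voom called 0 in both.

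WRKY genes that lie side by side near the ends of chromosomes 11 and 12 mostly had their highest levels in WT no Pi. In each row every gene lies within 20000 bases of the next. The chromosome 11 row is WRKY52, WRKY46, WRKY104, WRKY40 and WRKY50. The chromosome 12 row is WRKY114, WRKY97, WRKY95 and WRKY64, followed by WRKY65, which was below the filter. These chromosome ends are duplicates of each other, and WRKY46 with WRKY97, WRKY104 with WRKY95 and WRKY40 with WRKY64 share their best protein match, so reads may be split between copies and single values are uncertain.

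WRKY104 was the only gene of these rows that passed. It had 0, 4.51 and 27.2 FPKM in phr2 no Pi, 0.873, 0.112 and 0.638 in phr2 control, 136, 19.2 and 54.3 in WT no Pi and 14.1, 14.2 and 11 in WT control. On control medium phr2 lay below WT throughout, and in WT all libraries without Pi lay above those on control medium. It fell in phr2 by 3.27 ± 0.69 for the mean of both media (adjusted p = 0.0487), and its WT response was 1.93 ± 0.98 (adjusted p = 0.243).

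Its chromosome 12 partner WRKY95 had 11.2, 18.8 and 20.6 FPKM in phr2 no Pi, 4.64, 12.8 and 14.2 in phr2 control, 107, 21.3 and 69.8 in WT no Pi and 26.7, 14.6 and 11.6 in WT control. WT no Pi 1 was the highest library and WT no Pi 3 the next. The same 2 libraries were the highest for WRKY52, WRKY46, WRKY104, WRKY40, WRKY50 and WRKY114 as well. For WRKY64 WT no Pi 1 was the highest and WT control 2 the next, and for WRKY97 the highest was phr2 control 3. WT no Pi 2 had 0.784 FPKM of WRKY40 and 1.07 FPKM of WRKY50, over 5-fold below both other WT no Pi libraries.

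**Figure D4:**
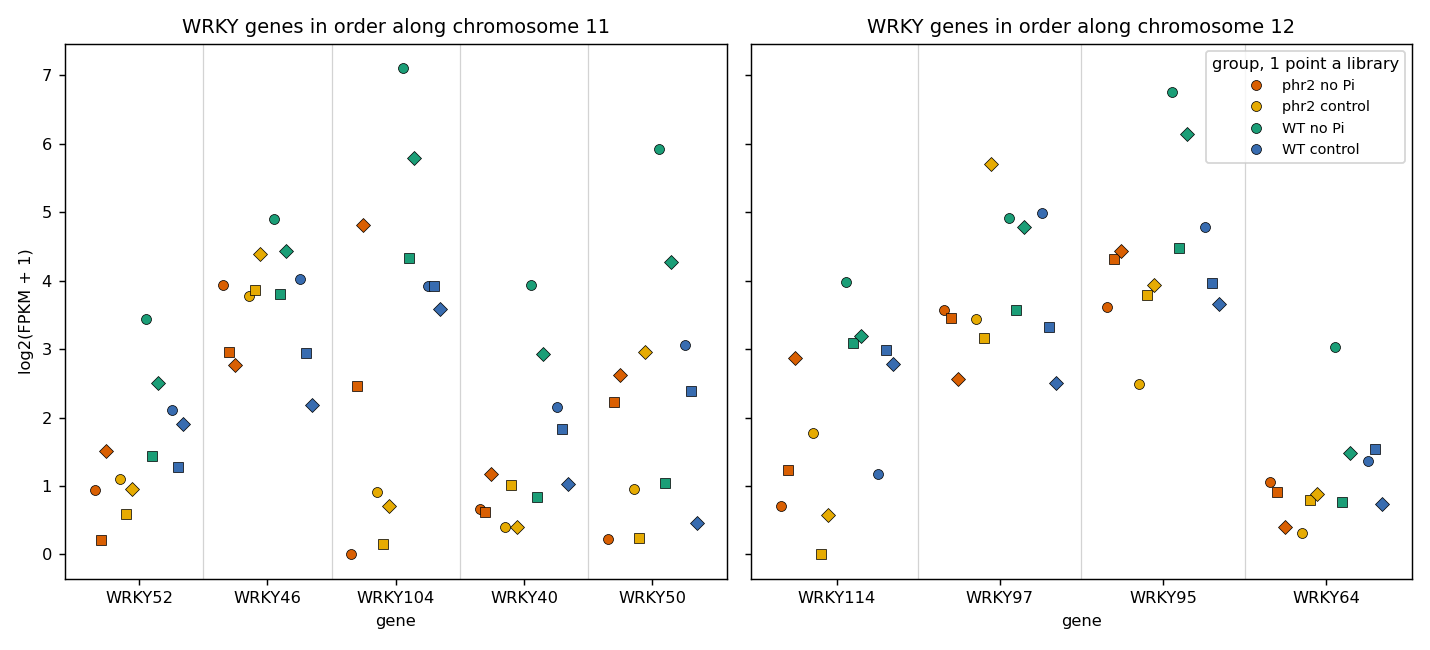
Level in each library as log2(FPKM + 1) (y axis) of WRKY genes in their order along chromosomes 11 and 12 (x axis), coloured by group, with marker shape for the replicate. WT no Pi 1, the green circles, gave the highest point for every gene shown except WRKY97, whose highest point is phr2 control 3.

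Some neighbours elsewhere were set side by side in the same way. WRKY107 and WRKY10, side by side on chromosome 1 on opposite strands, were at -0.87 and -1.86 in phr2 minus WT, neither passing. Os12g0597650 overlaps WRKY94 on the other strand. Both genes had their 2 highest values in WT no Pi 1 and WT no Pi 3, at 48.3 and 56.4 FPKM for Os12g0597650 and 36.2 and 27.6 FPKM for WRKY94. The 2 genes named WRKY16, without a listed domain, lay between 5.31 and 41.6 FPKM in all libraries.

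Single libraries lay far from the others of their group. WT control 1 was over 5-fold below both other WT control libraries for 19 of 76 WRKY genes (5 of them listed at 0 there), WRKY28, WRKY24, WRKY70, WRKY7 and WRKY15 among them, and over 5-fold above both for WRKY8 and WRKY11. WRKY8, for example, had 326 FPKM in WT control 1 and 13.9 and 12 FPKM in the others. The library labelled phr2 no Pi 3 was over 5-fold above both other phr2 no Pi libraries for 18 WRKY genes and over 5-fold below for 3, all listed at 0 there. These 5-fold counts were not made for all genes. Across all genes kept, r was 0.889 and 0.821 between WT control 1 and WT control 2 and 3, and 0.928 between WT control 2 and 3. It was 0.862 and 0.879 between phr2 no Pi 3 and phr2 no Pi 1 and 2, and 0.93 between phr2 no Pi 1 and 2. Without the library labelled phr2 no Pi 3, 16 WRKY genes (21.1%) were lower in every remaining phr2 library than in every WT library, against 4.11% of all genes. The highest value lay in WT no Pi 1 for 20 WRKY genes (26.3%) and in WT control 2 for 16 (21.1%), against 8.06% and 10.8% of the other genes kept.

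Some WRKY genes differed little between phr2 and WT for the mean of both media. WRKY81, WRKY88, WRKY89, WRKY87 and WRKY109, all with the domain, lay within 5.22 to 66.7 FPKM in every library. Their phr2 minus WT differences for that mean were between -0.08 and 0.19. On control medium, though, WRKY87 had 33.07, 32.71 and 47.66 FPKM in phr2 and 17.25, 24.12 and 29.85 FPKM in WT. WRKY87 and WRKY9 were the 2 of 76 WRKY genes with every phr2 control library above every WT control library, against 9.18% of all genes. The 13 kept genes without a listed domain had a median of -0.06 and none passed, against a median of -1.20 and 9 of 63 for genes with the domain. The highest difference of the family, for WRKY29, was 0.91 ± 0.36 (adjusted p = 0.222).

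Proteins that act with WRKY factors were counted from lists of matching descriptions, without WRKY genes. For the mean of both media 1.22% of all genes passed, and the median of all genes was 0.02. Of 30 kept VQ motif genes 5 fell and 0 rose in phr2 for the mean of both media, with a median of -1.10: VQ MOTIF-CONTAINING PROTEIN 2, 3, 8, 15 and 21. VQ8, described as a positive regulator of heat tolerance, fell by 1.76 (adjusted p = 0.041). Of 52 MAP kinase cascade genes 3 fell and 0 rose, with a median of -0.48: SMALL GRAIN 1, the kinase MKK4 (-3.95, adjusted p = 0.0488), MITOGEN-ACTIVATED PROTEIN KINASE 7 (-2.38, adjusted p = 0.041) and Os06g0708050. Of these called genes only VQ8 had every phr2 library below every WT library. SMALL GRAIN 1, for example, had 419 FPKM in phr2 no Pi 3, within its WT range of 223 to 2028 FPKM. The adjusted p of these calls lay close to the threshold, at 0.041 to 0.049. Calls for list genes, here and below, were not repeated in the alternative settings. Summed VQ levels ran from 272 to 754 FPKM in phr2 and from 838 to 5815 FPKM in WT.

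Defence genes that WRKY factors are known to act on, or with, were counted from lists in the same way, where 1.22% of all genes passed for the mean of both media. Of 76 pathogenesis-related genes 2 fell and 0 rose in phr2 for the mean of both media, both glucanases, with a median of -0.32. Of 30 diterpenoid phytoalexin genes 1 fell, with a median of -0.21, and of 22 salicylic acid signalling genes 0 passed, with a median of -0.67. On control medium alone 1 diterpenoid phytoalexin gene rose, the cytochrome P-450 71Z2 (3.10, adjusted p = 0.0491), with 1.29, 15.4 and 17.2 FPKM in phr2 control and at or below 0.101 FPKM in all other libraries. The higher values were in phr2 control 2 and phr2 control 3, where 89 genes had fragments found in no other library. This rise therefore cannot be told apart from what sets these libraries apart. In the WT response 0 genes of these 5 lists passed.

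The 37 WRKY genes below the filter included 12 listed at 0 in every library. WRKY62 and WRKY118 reached 1 FPKM in just 3 libraries and were kept; WRKY56, WRKY32, WRKY65, WRKY61, WRKY63 and Os02g0181200 reached it in 2 and were not. WRKY61 and WRKY63, both on chromosome 11 (27740507 to 27741184 and 27784700 to 27785295), had fragments in 2 libraries only. WRKY61 had 225 fragments (34.6 FPKM) in phr2 control 2 and 10 (1.75 FPKM) in phr2 control 3. WRKY63 had 53 (11.7 FPKM) and 34 (8.55 FPKM) in the same libraries. Both were at 0 in phr2 control 1 and the other 9 libraries.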

How the data were processed

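FPKM values per transcript in 12 leaf libraries were deposited by the authors as 1 table. The submitters' processing notes name HISAT2 2.0, StringTie 1.3.0, Bowtie 0.12.2 and the mouse build mm8, while the table carries rice gene identifiers and positions; the rice build is not given in the sources used here, and positions are as deposited. Transcripts were summed per gene. Every deposited FPKM came out as a whole number of fragments (100%, tolerance 0.01) after its length and a fixed step per library were divided out, which gave fragments per gene and the depths stated; libraries were not scaled evenly to those fragments (implied over counted 0.674 to 1.21), so rescaling was tried.

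Genes with at least 1 FPKM in at least 3 libraries were tested with limma 3.58.1 (R 4.3.3) on log2(FPKM + 1), with an intensity trend, 4 group means and Benjamini-Hochberg adjustment over 22648 genes; adjusted p below 0.05 counted as passing. The fit was run on simulated data with independent normal noise and genes changed in WT no Pi alone. No library that deviates as a whole was simulated, so this run does not bear on the phr2 minus WT calls. Fold changes on this scale understate the change of low genes. Figures were drawn with matplotlib 3.10.9. Members, role lists and pathway lists were chosen with earlier results of these data known. The rule named genes that passed, the 6 smallest p in each comparison, the 5 highest means, genes with known roles, neighbours within 20000 bases and genes at the filter's edge. Not every gene that met the rule is described: WRKY3, WRKY14, WRKY36, WRKY39, WRKY83 and WRKY115, for example, are not. WRKY7, WRKY8, WRKY15, WRKY81, WRKY87, WRKY88, WRKY89, WRKY109 and WRKY121 were named after their values were seen. Sequences of promoters and proteins were not used here. Alternatives are given at the end.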

Additional observations from a re-analysis of the deposited data

How the results depend on the processing

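No named gene that passed in any setting had the opposite sign in the fit reported; genes that passed in none could turn, as the Pi list did in the phr2 response without phr2 no Pi 3. The cause of each shift was not tested. Counts of 76 WRKY genes called are given for the WT response, phr2 minus WT on control medium, and phr2 minus WT over both media; the fit reported gave 1, 3 and 9. They were 0, 0 and 0 with no filter on low values, with quantile normalization and with the replicate block; 5, 0 and 0 after rescaling to the same FPKM sum and with voom on recovered fragments; and 6, 0 and 0 after rescaling to the fragments counted, a setting chosen after seeing the data. With at least 5 FPKM in 3 libraries control medium gave 5, and with only the groups of the comparison the WT response gave 0 and control medium 8. Without phr2 no Pi 3 and WT control 1 together the counts were 0, 22 and 31, and 17 for phr2 minus WT without Pi. Both libraries lay towards the other genotype in many WRKY genes, so these counts are no separate evidence of a difference. Without phr2 no Pi 3 and WT no Pi 2 together they were 3, 13 and 29, with 10 for phr2 minus WT without Pi and 1 for no Pi minus control. Leaving out 1 library at a time gave 0 to 3 in the WT response, 0 to 17 on control medium, 0 to 26 over both media, 0 to 4 without Pi, 0 to 1 for no Pi minus control, and 0 to 0 for the phr2 response and for the difference between responses.

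The median WRKY difference between phr2 and WT over both media stayed between -1.38 and -0.78 over these settings, with 54 to 63 of 76 genes below 0 (56 of 68 with 1 transcript, 49 of 57 at the higher filter). Rescaling, quantile normalization and voom took the median of all genes to between 0.13 and 0.27 there (0.02 in the fit reported) and to as much as 0.48 in the WT response (-0.01 in the fit reported), where the WRKY median became 0.26 after rescaling to the FPKM sum against 0.41 for all genes. Same-numbered libraries did not deviate together: of 18 pairs, r was over 0.1 in 5 (lowest -0.43, highest 0.30), so the numbers were not used as pairs. The promoter motif counts that had been planned were not run. Levels of few fragments, such as WRKY108 in phr2, limit the size of a fold, and intervals were not computed for single values.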

Other observations

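The fragments of WRKY61 and WRKY63 in phr2 control 2 and phr2 control 3 alone were part of a wider pattern. Of all genes, 89 had at least 3 fragments in both of these libraries and 0 in the other 10. For the other 65 ways of taking 2 libraries, the same count was at most 7, for WT no Pi 1 with WT no Pi 3. Of the 89 genes, those beside WRKY61 and WRKY63 on chromosome 11 included Os11g0685300 and Os11g0685600. phr2 control 1, of the same group, had none of these fragments by construction of the count, and what sets the 2 libraries apart was not tested.

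VQ motif genes were the list of WRKY partners with the lowest median in phr2 minus WT on control medium, at -1.46. On that medium 3 of 30 fell, where 0.667% of all genes passed. Without Pi the median was -0.90 and 0 of 30 passed. In the WT response their median was -0.84, against -0.10 for WRKY genes, and 0 of 30 passed.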
